A study of Rattus norvegicus with 20 samples.

Results

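E13 rat testes that had spent 3 days in organ culture were compared with E13 testes taken directly from the embryo. The members are 8 of the 20 arrays of the series. They were chosen by their titles as the 4 cultured testis arrays of the vinclozolin experiment and the 4 E13 testis arrays. All embryos were Sprague-Dawley. For the cultures, E13 gonads were explanted together with the mesonephros, the embryonic kidney that adjoins the gonad, and kept for 3 days on filters over CMRL medium with antibiotics, insulin, transferrin, glutamine and bovine serum albumin. One gonad of each pair received vinclozolin, a fungicide with antiandrogenic metabolites, at 50 µM in DMSO, and the gonad of the other side received DMSO alone (2 arrays each). Per the labels, cords had formed by the end of culture, and the testis was then parted from the mesonephros for RNA. The E13 testes came from dams injected daily from E8 with vinclozolin at 100 mg/kg/day or with DMSO (2 arrays each). The labels do not say how these gonads were parted from neighbouring tissue. A further 4 arrays of E16 testes from dams dosed from E8 to E14 (2 vinclozolin, 2 DMSO) gave the in utero testis of the same total age as the cultures. Arrays within a group are labelled as biological replicates, with no word on whether separate litters or embryos stand behind them. The p-values therefore cover the spread from array to array, part of which may be technical. The fits take all 8 arrays as independent, although the vinclozolin and DMSO cultures come from opposite gonads of pairs. Same-numbered vehicle and vinclozolin arrays also deviated together at E13 (r = 0.65). The SEs and adjusted p-values ignore both.

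In the rat, E13 is the stage at which the gonad of a male embryo turns into a testis. Sry, carried by the Y chromosome, is switched on briefly in the supporting cells, which become Sertoli cells, enclose the germ cells in cords and secrete anti-Müllerian hormone. Fetal Leydig cells arise afterwards between the cords under Sertoli-derived desert hedgehog and make androgen from cholesterol. Blood vessels grow in from the mesonephros in the same period, and peritubular cells with smooth muscle proteins come to surround the cords. An explant has no blood flow and no link to the circulation of embryo or dam.

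Values are array signal intensities of probe sets, scaled to one trimmed mean of 200 on every array. Differences are on the scale of log2(intensity + 16), which understates the change of a gene near the bottom of the range. Where the values of single arrays are given, they run in the order DMSO 1, DMSO 2, vinclozolin 1 and vinclozolin 2. One probe set stands for each gene, so levels are compared between groups and not between genes. Cultured and in utero arrays were deposited on different scales, so culture and the set the arrays were run in cannot be told apart. Before rescaling, the trimmed mean was 218.1 on the cultured arrays and 210.1 on the in utero arrays. RNA integrity was read from the Actb control probe sets, where the 3' signal over the 5' signal grows as RNA degrades. It was 2.67 to 3.9 in culture, 1.98 to 3.47 at E13 and 2.48 to 2.99 at E16. Replicate arrays correlated across probe sets on the log2 scale at 0.971 to 0.976 in culture and 0.956 to 0.968 at E13. Both E13 arrays numbered 1 gave a high signal for Xist, an RNA made from the inactive X chromosome of female cells. The most abundant Xist probe set had 4.8, 5, 4.7 and 103.5 units in culture, against 722, 19.4, 853 and 17 units at E13. The Y-linked Uty and Eif2s3y were present on all 4 E13 arrays (501 to 673 and 2249.9 to 3029.9 units). Counts of list genes that moved by over 1.5 times without the E13 arrays numbered 1, and gene differences that lost the threshold or moved by over 1.5-fold without them, are therefore given both ways below.

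The first principal component of the 12 arrays, with 41.6% of the variance, separated the cultured arrays (46.2 to 62.5) from all E13 and E16 arrays (-39.1 to -16.2). On the second, with 24.4%, the 2 in utero stages lay at opposite ends, with E13 at 23.2 to 46.9 and E16 at -36.6 to -28.5. The cultured arrays lay between them on this axis, at -5.27 to -0.59. Of 19949 probe sets tested with limma, 7259 passed an adjusted p of 0.05 between culture and E13, 3521 of them higher and 3738 lower in culture. Without both E13 arrays numbered 1 the count was 5937, with 3215 higher and 2722 lower. Among 10858 genes, 1906 rose (17.6%) and 2339 fell (21.5%), so 39.1% moved either way. By 2-fold or more, 465 rose and 412 fell, and the median of all genes was -0.03. These shares are the background for every gene list below. The groups of 4 arrays did not overlap for 41.3% of all genes.

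**Figure D1:**
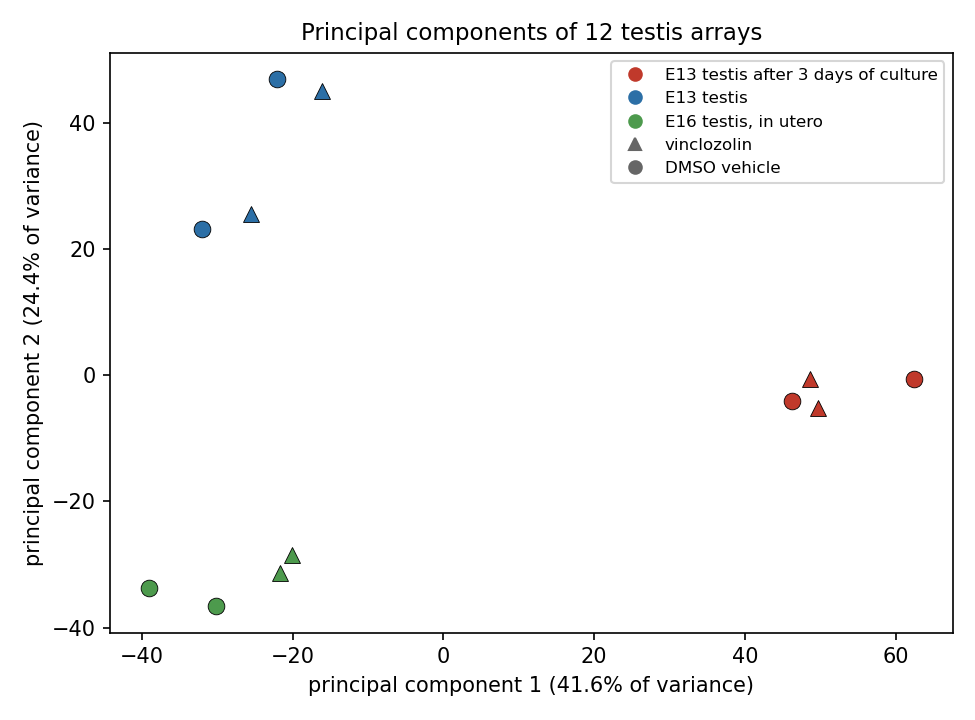
Each point is an array, placed by its first (horizontal) and second (vertical) principal component over the tested probe sets, in arbitrary units, with triangles for vinclozolin and circles for DMSO. The 4 cultured arrays lie apart from the other 8 along the first axis (46.2 to 62.5), and between E16 and E13 along the second.

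Promoters of 3 steroid and hormone genes that rose and of a globin gene that fell are printed here, with the short motifs of factors known to act on such genes. They are RefSeq sequences of the GRCr8 assembly, 250 bases before to 50 after the annotated start, 5′ to 3′ on the strand of the gene. Capitals mark AGGTCA on either strand, an element bound by nuclear receptors such as Nr5a1, in Cyp11a1 (chr8:67318415-67318714, plus strand), Insl3 (chr16:18432939-18433238, plus strand) and Amh (chr7:9559818-9560117, minus strand). In the beta-globin gene Hbb (chr1:167663672-167663971, minus strand) they mark CCACACCC, the box bound by the erythroid factor Klf1.
Cyp11a1: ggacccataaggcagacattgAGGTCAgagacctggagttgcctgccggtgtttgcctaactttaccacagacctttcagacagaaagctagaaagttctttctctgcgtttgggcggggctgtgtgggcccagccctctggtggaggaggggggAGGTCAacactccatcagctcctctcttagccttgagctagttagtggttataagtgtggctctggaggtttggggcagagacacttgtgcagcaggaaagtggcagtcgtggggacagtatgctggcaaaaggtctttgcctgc
Insl3: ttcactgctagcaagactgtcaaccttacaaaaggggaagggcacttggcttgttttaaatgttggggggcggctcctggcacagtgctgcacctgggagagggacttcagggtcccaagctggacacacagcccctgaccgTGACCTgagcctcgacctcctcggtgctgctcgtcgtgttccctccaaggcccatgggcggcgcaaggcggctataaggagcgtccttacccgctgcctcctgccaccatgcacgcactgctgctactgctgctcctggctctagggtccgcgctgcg
Amh: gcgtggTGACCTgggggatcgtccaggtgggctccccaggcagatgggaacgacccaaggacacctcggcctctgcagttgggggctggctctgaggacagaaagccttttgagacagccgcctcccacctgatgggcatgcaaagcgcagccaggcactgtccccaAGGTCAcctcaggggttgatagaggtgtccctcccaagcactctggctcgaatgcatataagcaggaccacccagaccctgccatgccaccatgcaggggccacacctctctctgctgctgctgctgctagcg
Hbb: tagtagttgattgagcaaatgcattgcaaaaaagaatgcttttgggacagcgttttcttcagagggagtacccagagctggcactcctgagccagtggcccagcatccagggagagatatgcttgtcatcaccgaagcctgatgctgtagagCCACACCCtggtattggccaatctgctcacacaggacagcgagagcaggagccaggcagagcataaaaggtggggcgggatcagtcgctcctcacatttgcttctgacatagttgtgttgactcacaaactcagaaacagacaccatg
AGGTCA was found in 7 of the 11 Leydig cell genes with a promoter in the table and in 6 of 17 Sertoli cell genes, against 16.2% of all 33469 promoters of the same length. CCACACCC was found in 2 of 14 red cell genes, against 3.22% of all promoters. Both strands were searched. A match describes the letters and not binding.

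Cyp17a1, Hsd3b1 and Cyp11a1, genes of Leydig cell steroid synthesis, showed the 3 largest rises among all genes tested. Of 15 tested members of the Leydig cell list, 10 rose and 1 fell in culture relative to E13, with a median of 1.32 (9 and 1 without the E13 arrays numbered 1). The list's summed intensity was 10684 to 12183 units in culture, against 3284 to 3746 at E13. In bulk RNA, more cells of a type and more RNA per cell cannot be told apart.

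Cyp17a1, the lyase that turns progestins into androgens (chr1:255476861-255484547), had 611, 876, 726 and 715 units in culture, against 9.5, 14.4, 1.6 and 15.8 units at E13. All 4 E13 values lay under the 40th percentile of their array, so the gene was at the bottom of the range before culture and well measured after it. The difference was 4.85 (SE 0.20, adjusted p = 1.97e-06), or 3.91 with low values set to that percentile. Cyp11a1, whose product cuts the cholesterol side chain in the first step of steroid synthesis (chr8:67318665-67330196), behaved the same way. It had 541, 565, 557 and 468 units in culture, against 23.4, 18.7, 22.2 and 25.3 units at E13, a difference of 3.84 (SE 0.13, adjusted p = 5.68e-07). Hsd3b1, the enzyme between these steps, had 3907, 3663, 3497 and 3282 units in culture, against 161, 58, 205 and 180.1 units at E13. Its difference was 4.54 (SE 0.27, adjusted p = 1.57e-05), and no cultured array came near an E13 array.

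Other genes of the Leydig cell list rose as well, Star from a level already measurable at E13 and Insl3 from the bottom of the range. Star, which carries cholesterol into mitochondria, had 467, 611, 511 and 428 units in culture and 87.4, 74.8, 79.7 and 101 units at E13, a difference of 2.35 (SE 0.14, adjusted p = 1.57e-05). Fdx1, an electron donor of the side-chain cleavage enzyme, rose by 2.18 (SE 0.08, adjusted p = 6.82e-07). Insl3, a hormone that Leydig cells secrete and testis descent requires, had 231, 196, 242 and 159 units in culture, against 5.8, 9.6, 23.5 and 1.8 units at E13. The difference was 3.14 (SE 0.25, adjusted p = 4.76e-05), or 2.16 with low values set to the 40th percentile. Hsd17b3, which makes testosterone, the lipoprotein receptor Scarb1 and the luteinizing hormone receptor Lhcgr were also among the 10 risers (2.51, 1.32 and 1.07). Nr5a1, the transcription factor that drives many of these genes, had 787, 563, 807 and 509 units in culture and 428, 637, 399 and 456 units at E13. Its groups overlapped and it did not pass (0.46, adjusted p = 0.0779).

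Leydig cell genes did not reach the level of testes grown to E16 in utero. Against E16, 1 member of the list was higher and 11 were lower in culture (median -0.70), where 18% of all genes were higher and 22.8% lower (40.9% either way, with no overlap between groups for 41.4%). Cyp17a1 at E16 had 2529.6, 6209, 7091 and 6285 units, so culture was lower by 2.80 (SE 0.25, adjusted p = 2.77e-05). For Insl3 the E16 arrays had 509.8, 1967, 2512 and 2258 units, and culture was lower by 2.83 (SE 0.38, adjusted p = 0.000247). Cyp11a1 was lower by 1.98 (SE 0.13, adjusted p = 3.65e-06) and Hsd3b1 by 0.69 (SE 0.11, adjusted p = 0.00087). Star had 377, 615, 842 and 759 units at E16, a range that overlapped the cultured arrays. Nr5a1, the one member that was higher in culture, had 251, 362, 306 and 338 units at E16. One probe set of Fdx1 was lower in culture (-0.30), an effect lost on leaving out E16 vinclozolin array 1 (adjusted p = 0.0505), and its second probe set was higher (0.93, adjusted p = 0.00112).

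**Figure D2:**
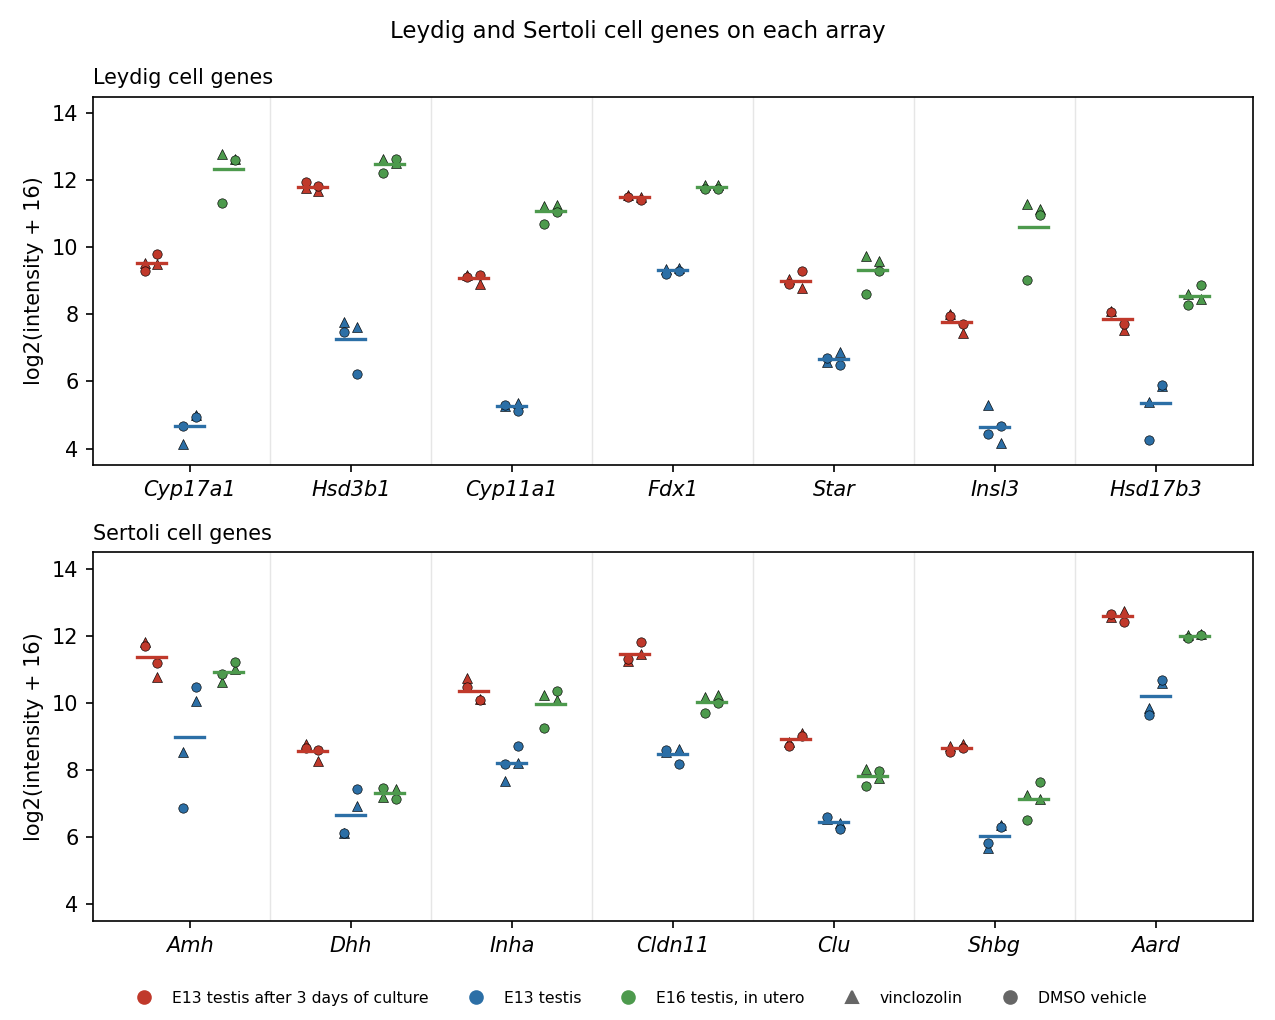
Log2(intensity + 16) of 7 Leydig cell genes (top) and 7 Sertoli cell genes (bottom) on each array of culture, E13 and E16, with triangles for vinclozolin, circles for DMSO and bars for the group means. Cultured arrays lie above all E13 arrays for each of these genes, below all E16 arrays for Cyp17a1, Cyp11a1 and Insl3, and above all E16 arrays for Cldn11, Clu and Shbg.

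Most Sertoli cell genes rose in culture, and most were above the level of E16. Of 24 tested members, 14 rose and 4 fell against E13 (median 1.13), and 16 were higher and 0 lower than at E16 (median 0.64). Without the E13 arrays numbered 1 the first pair was 14 and 5. Nr0b1, described below with the early gonad factors, was among the fallers and was still above E16. The genes named next are among the risers. Cldn11, the tight junction protein between Sertoli cells, had 2516, 3579, 2425 and 2799 units in culture, against 377, 278, 358 and 381 units at E13. The difference was 2.96 (SE 0.15, adjusted p = 9.18e-06). At E16 it had 813, 1006, 1149 and 1201 units, so the cultured arrays were the highest of the 3 groups (1.43 over E16, adjusted p = 7.11e-05). A second Cldn11 probe set also rose against E13 (1.31) and did not pass against E16 (0.35, adjusted p = 0.415). Clu, a secreted chaperone, rose by 2.46 (SE 0.14, adjusted p = 1.39e-05) and was 1.10 above E16. Shbg, which codes for the androgen-binding protein of the Sertoli cell, had 355, 389, 405 and 427 units in culture, against 41.4, 62.9, 35.7 and 66 units at E13. It rose by 2.63 (SE 0.17, adjusted p = 2.05e-05) and was 1.53 above E16 (SE 0.20, adjusted p = 0.000245).

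Amh, the hormone that removes the Müllerian duct, had 3314, 2339, 3643 and 1745 units in culture, against 101, 1414, 355 and 1049 units at E13. All cultured arrays were higher, but the E13 arrays were spread over a wide range, with both arrays numbered 1 the lowest. The difference was 2.40 (SE 0.67, adjusted p = 0.02) and 1.11 (adjusted p = 0.011) without those arrays. With the other arrays kept, it lost the threshold without DMSO array 1 or vinclozolin array 1 of the culture (highest adjusted p = 0.0612). At E16 Amh had 1849, 2396, 1557 and 2049 units, within the range of the cultures. Dhh, the desert hedgehog ligand that Sertoli cells send to Leydig cell precursors, had 389, 373, 429 and 293 units in culture and 53.6, 158, 54.2 and 106 units at E13. It rose by 1.93 (SE 0.28, adjusted p = 0.000819) and was 1.27 above E16 (SE 0.14, adjusted p = 0.000101). On the receiving side, the hedgehog target Gli1 had 332, 275, 336 and 280.1 units in culture and 48.1, 163, 79.7 and 90.6 units at E13 (1.62, adjusted p = 0.00151). Pdgfra, a growth factor receptor of interstitial cells, rose by 1.30 (SE 0.10, adjusted p = 4.68e-05). Smo, which passes on the hedgehog signal, has a probe set besides the one that stands for the gene. That probe set was lower in culture, by 1.21 against E13 (adjusted p = 0.00156) and by 1.00 against E16. The one that stands for the gene also passed against E13, but its difference is not given here. No direction for Smo as a gene is therefore read from these values. The hedgehog and PDGF list had 4 risers and 2 fallers among 10 (median 0.19).

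The genes of the early, undifferentiated gonad moved the other way. Sry, at chrY:465260-465772, had 7.8, 29.8, 20.9 and 6.1 units in culture, against 255, 127, 230.3 and 220.2 units at E13. It fell by 2.83 (SE 0.29, adjusted p = 0.000134), or 2.04 with low values set to the 40th percentile, which all cultured values were under. At E16 it had 14.7, 1.3, 5.7 and 14.9 units, all under that percentile too. Sry therefore entered the test through its E13 arrays alone. Of 16 early gonad transcription factors tested, 0 rose and 12 fell against E13 (median -0.72), or 0 and 9 without the E13 arrays numbered 1. Emx2, needed for the gonad to form in the mouse, had 318, 193, 315 and 438 units in culture and 1391, 1097, 1177 and 872 units at E13 (-1.83, SE 0.22, adjusted p = 0.000325). Lhx9, another early gonad factor, fell by 1.01 (SE 0.14, adjusted p = 0.000578) and Nr0b1, an X-linked nuclear receptor, by 0.74 (SE 0.12, adjusted p = 0.00109). Against E16 the list was split, with 6 genes higher and 5 lower (median 0.00). Lhx9 was 1.00 lower in culture than at E16, while Nr0b1, at 214, 187, 235 and 243 units in culture against 117, 85.4, 113 and 104 units at E16, was 0.96 higher (adjusted p = 0.000296).

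Markers of the supporting cells of the ovary showed no common direction. Among 8 tested members, 1 rose and 3 fell against E13 (median -0.12). The Wnt effector Lef1 had 304 to 398 units in culture, against 675 to 771 units at E13, and fell by 1.00 (SE 0.11, adjusted p = 0.000223). The homeobox gene Irx3 fell by 0.84. The riser, Ctnnb1 (0.36), codes for beta-catenin. Its rise was lost without the E13 arrays numbered 1 (adjusted p = 0.193), and its other probe sets did not pass (-0.22 and -0.63).

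Germ cell genes were lower in culture than in either in utero group. Of 12 tested members, 1 rose and 6 fell against E13 (median -0.84, or 0 and 7 without the E13 arrays numbered 1), and 0 were higher and 8 lower than at E16 (median -1.08). The list's summed intensity was 518 to 903 units in culture, against 1032 to 1442 at E13 and 1575 to 3126 at E16. Tfap2c, a factor of primordial germ cell identity, had 1.5, 10.9, 2.5 and 31.3 units in culture, against 137, 198, 129 and 157 units at E13. It fell by 2.74 (SE 0.31, adjusted p = 0.000208), or 1.67 with low values set to the 40th percentile. Tex101, a germ cell surface protein, had 7.3, 35.2, 38.9 and 39.4 units in culture, against 75.5, 176, 122 and 179 units at E13 and 272, 521, 489.7 and 372 units at E16. It was lower by 1.75 than E13 (adjusted p = 0.00176) and by 3.26 than E16 (adjusted p = 1.41e-05). Sall4, a pluripotency factor, and Tex15, needed in the mouse for meiosis and transposon silencing, each fell by 1.24 against E13 (adjusted p = 0.00188 and 0.00594). The germ cell markers Pou5f1, Dazl, Ddx4 and Dnd1 had no tested probe set and were not analysed here.

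The interstitial stroma divided. Of 20 tested members, 9 rose and 8 fell against E13 (median 0.12, or 0.01 without the E13 arrays numbered 1), while 1 was higher and 15 lower than at E16 (median -0.74). Mgp, a matrix protein that inhibits calcification, had 888, 726, 604 and 738 units in culture, 26.1, 70, 38.8 and 87 units at E13 and 3383, 3248, 2489 and 2354 units at E16. It was thus 3.48 above E13 (SE 0.27, adjusted p = 3.68e-05) and 1.93 below E16 (adjusted p = 1.26e-06). Dcn, the small proteoglycan decorin, held the same middle place, 2.07 above E13 and 1.37 below E16, as did Col6a1, a chain of type VI collagen (1.45 and -0.75). Sfrp4, a secreted Wnt inhibitor, had 382, 158, 244 and 325 units in culture, against 25, 17.4, 2.2 and 19.8 units at E13 (3.19, SE 0.31, adjusted p = 0.000109). Its relative Sfrp2 went the other way, with 41, 38.6, 46.3 and 54.8 units in culture against 356, 193, 237 and 199 units at E13 (-2.07, SE 0.20, adjusted p = 0.000109). The matrix gene Fbln1 fell by 1.16 against E13 (SE 0.11, adjusted p = 0.000104) and was 0.71 lower than at E16.

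Genes of peritubular smooth muscle stayed near or below the E13 level. Of 17 tested, 1 rose and 5 fell against E13 (median -0.37, or 0 and 4 without the E13 arrays numbered 1), and 0 were higher and 13 lower than at E16 (median -1.19). Acta2, smooth muscle actin, had 278, 182, 197 and 175 units in culture, against 1002, 1620.0, 1068 and 1222 units at E16. The E13 arrays overlapped the cultures (-0.08, adjusted p = 0.684). Cald1, an actin-binding regulator of contraction, was lower than both, by 0.57 against E13 (SE 0.08, adjusted p = 0.000702) and by 1.14 against E16 (adjusted p = 1.03e-05). Its second probe set did not pass against E13 (-0.22, adjusted p = 0.551). The intermediate filament gene Des fell by 0.63 against E13 (adjusted p = 0.00804). The fall of Myh11, smooth muscle myosin (-0.67), was past the threshold with all arrays and not without the E13 arrays numbered 1 (adjusted p = 0.0603). So was that of the brightest probe set of the tropomyosin gene Tpm1 (-0.50, adjusted p = 0.0736 without them), while its other 4 probe sets fell by 1.13 to 2.25, with no overlap between the groups. Skeletal muscle genes, a list added after the data were seen, were lower than at E16 in 10 of 11 cases. A gene could enter the test through its E16 arrays alone, so this count is partly set by the filter. Against E13, 2 fell (median -0.43), or 6 without the E13 arrays numbered 1 (median -0.74).

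Red cell genes showed the largest falls. Of 20 tested members, 0 rose and 16 fell against E13 (median -1.52), and 0 were higher and 19 lower than at E16 (median -2.39). The summed intensity of the list was 6623 to 9853 units in culture, against 24243 to 37617 at E13 and 32533 to 59056 at E16. Hbg1, an embryonic beta-type globin (chr1:167683760-167685315), had 53.1, 23.6, 32.5 and 48.7 units in culture, against 6969, 9345, 7773 and 8737 units at E13. The fall of 7.24 (SE 0.18, adjusted p = 7.89e-08) was the largest of any named gene, and 6.32 with a pseudocount of 64. Hbz, the embryonic alpha-type globin, had 841, 279, 481 and 319 units in culture and 7475, 10551, 8188 and 9829 units at E13 (-4.30, SE 0.29, adjusted p = 2.23e-05). Ahsp, the chaperone of alpha-globin, had 1.7, 8, 6.9 and 20.4 units in culture, against 257, 875, 311 and 644 units at E13. Its fall was 4.30 (SE 0.37, adjusted p = 6.54e-05), or 3.17 with low values set to the 40th percentile and 4.98 without the E13 arrays numbered 1.

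The definitive globins had lower signals at E13 than at E16, and culture lay further below E16 than below E13. Hbb, whose promoter is shown above, had 216, 129, 103 and 196 units in culture, 411, 3656, 541 and 1959.9 units at E13 and 13010.2, 10121, 11921 and 11109.5 units at E16. Culture was lower by 6.08 than E16 (SE 0.19, adjusted p = 2.78e-08). Against E13 it was lower by 2.75 (adjusted p = 0.00667), and by 3.98 without the E13 arrays numbered 1, which had the lowest E13 values. Hba-a3, an alpha-type globin, was 5.56 below E16, and its fall of 1.71 against E13 (adjusted p = 0.0289) was lost without E13 vinclozolin array 2 or any of DMSO array 1, DMSO array 2 and vinclozolin array 1 of the culture (highest adjusted p = 0.0819). Without the E13 arrays numbered 1 the fall was 2.66. Globin genes have near-identical copies, and the Hbb probe set is of a class that can bind several of them, so its signal is that of the family. Slc4a1, the anion exchanger of the red cell membrane, was 2.03 below E13 and 4.12 below E16, and Rhag, a red cell membrane channel, was 2.18 and 2.56 below them. With low values set to the 40th percentile the Rhag differences were -0.66 and -1.04.

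**Figure D3:**
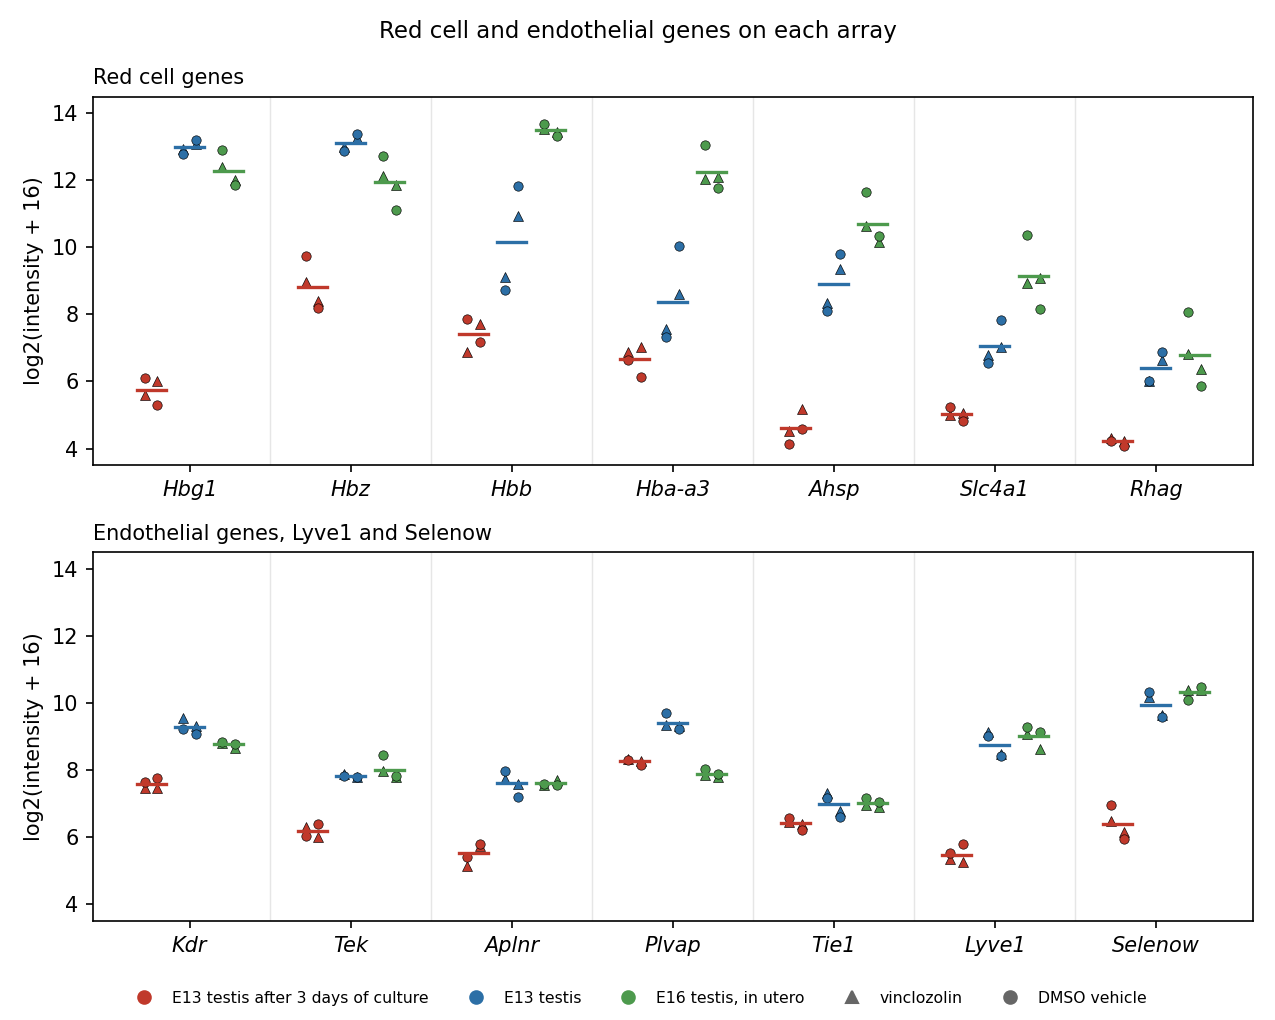
Log2(intensity + 16) of 7 red cell genes (top) and of 5 endothelial genes, Lyve1 and Selenow (bottom) on each array of culture, E13 and E16, with triangles for vinclozolin, circles for DMSO and bars for the group means. Cultured arrays lie below all E13 and E16 arrays for each gene except Plvap, for which they lie between E13 and E16.

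Endothelial genes fell with the blood genes, by less. Of 32 tested, 0 rose and 20 fell against E13 (median -0.66), or 0 and 17 without the E13 arrays numbered 1, and 4 were higher and 22 lower than at E16 (median -0.60). Their summed intensity was 4501 to 4638 units in culture, against 7113 to 8018 at E13. Kdr, the main receptor for vascular endothelial growth factor, had 185, 201, 162 and 163 units in culture and 582, 529.9, 734 and 620.4 units at E13 (-1.70, SE 0.13, adjusted p = 3.68e-05). Tek, the angiopoietin receptor, had 49.3, 67.5, 62.5 and 48.4 units in culture and 212, 205, 219 and 206 units at E13 (-1.64, SE 0.14, adjusted p = 5.72e-05). The apelin receptor Aplnr fell by 2.10 (SE 0.21, adjusted p = 0.000134) and was 2.08 below E16. Pecam1, a junction protein of endothelium, had 108, 90.9, 118 and 103 units in culture and 151, 116, 173 and 149 units at E13 (-0.43, adjusted p = 0.0358, or 0.241 without the E13 arrays numbered 1), so its groups overlapped. Vegfa, the ligand of Kdr, had 169.9, 181, 204 and 166 units in culture, against 369.7, 446, 416 and 408 units at E13 (-1.12, adjusted p = 0.000136), and its E16 values, 159.7 to 262 units, overlapped the cultures.

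Macrophage genes moved against E13 in no larger a share than all genes. Of the list, 15.8% rose and 15.8% fell, against 17.6% and 21.5% of all genes. Among 19 tested, 3 rose and 3 fell against E13 (median 0.00), or 1 and 2 without the E13 arrays numbered 1, and 1 was higher and 7 were lower than at E16 (median -0.38). The list's summed intensity was 1778 to 2215 units in culture and 1955 to 2406 at E13. Lyve1, a hyaluronan receptor of lymphatic endothelium and of embryonic macrophages, had 29.8, 39.3, 25 and 22.1 units in culture, against 499, 328, 545 and 345 units at E13 and 604, 554, 525 and 382 units at E16. It fell by 3.29 against E13 (SE 0.20, adjusted p = 1.57e-05). The platelet and macrophage chemokine Pf4 fell by 0.99 (adjusted p = 0.00204). Gpnmb, a lysosomal glycoprotein of phagocytes, rose instead, with 428, 361, 642 and 639 units in culture, against 123, 115, 132 and 222 units at E13 and 63.5, 65.6, 70.5 and 79.7 units at E16 (1.70 and 2.60). The cysteine protease gene Ctss rose by 0.56 with all arrays and not without the E13 arrays numbered 1 (adjusted p = 0.0935).

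Tissue next to the testis could enter either kind of sample, so its markers were counted as well. Of 14 mesonephric tubule genes tested, 2 rose and 6 fell against E13 (median -0.47), with a summed intensity of 1755 to 2858 units in culture and 4566 to 5086 at E13. The defining markers Pax2, Cdh16 and Lhx1 had no tested probe set, because they were too low on these arrays, and Pax8 did not pass. Krt19, a keratin of simple epithelia, had 251, 119, 223 and 307 units in culture, against 1425, 977, 1234 and 889 units at E13 (-2.30, adjusted p = 0.000185), and the epithelial adhesion gene Epcam fell by 1.58. Krt19 is also in a list of coelomic surface epithelium, where 1 rose and 6 fell among 9 (median -0.48). Emx2, given above as an early gonad factor, is also counted among the mesonephric fallers. Adrenal and neural crest genes moved both ways against E13, with 7 risers and 4 fallers among 18 (median 0.36), and 12 were higher and 1 lower than at E16 (median 0.92). The risers against E13 numbered 3 without vinclozolin array 1 of either the culture or E13 and 4 without E13 vinclozolin array 2. Ddc, the decarboxylase of catecholamine synthesis, had 107, 78, 64.2 and 72.2 units in culture and 246, 172, 199 and 198 units at E13, and was lower by 1.20 than E13 and by 1.14 than E16. Chgb, a granin of neuroendocrine cells, had 121, 141, 172 and 165 units in culture, against 10.3, 9, 5.3 and 9.6 units at E16 (2.75, SE 0.17, adjusted p = 2.71e-06), while its E13 values of 87.2 to 142 units overlapped the cultures. Gap43, a growth cone protein of neurons, rose by 0.68 against E13 (adjusted p = 0.00347) and was 1.03 above E16. The part of neighbouring tissue in the other changes was not tested.

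Genes of cholesterol synthesis rose almost as a whole. Of 21 tested, 17 rose and 0 fell against E13 (median 0.80), or 13 and 0 without the E13 arrays numbered 1, and 12 were higher and 0 lower than at E16 (median 0.38). Hsd17b7, which acts in both cholesterol and estradiol synthesis, had 388, 526, 449 and 452 units in culture and 131, 192, 122 and 163 units at E13 (1.49, SE 0.16, adjusted p = 0.000148). Sc5d, a desaturase late in the pathway, had 880.3, 987, 932 and 1136 units in culture, against 419, 499.9, 405 and 476 units at E13 and 366, 403, 481 and 443 units at E16. It was higher than both, by 1.10 and 1.19. Dhcr7, the last enzyme, rose by 1.36 against E13 (SE 0.14, adjusted p = 0.000156) and Cyp51, the lanosterol demethylase, by 0.80 (SE 0.09, adjusted p = 0.000175). Cyp51 was also 0.91 above E16 (SE 0.13, adjusted p = 0.00031).

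Fatty acid genes moved in the same direction. Of 15 synthesis genes, 8 rose and 0 fell against E13 (median 0.56) and 12 were higher and 0 lower than at E16 (median 0.57). Acss2, which makes acetyl-CoA from acetate, had 294, 415, 407 and 441 units in culture and 98.6, 94, 85.1 and 101 units at E13 (1.86, SE 0.14, adjusted p = 3.64e-05), and was 1.11 above E16. The desaturase Scd2 rose by 0.61 and was 0.97 above E16, and one of its 3 other probe sets did not pass against E13 (0.27, adjusted p = 0.499). Of 20 oxidation genes, 11 rose and 1 fell against E13 (median 0.37), or 9 and 0 without the E13 arrays numbered 1. Acaa2, the mitochondrial thiolase, rose by 1.35 (SE 0.09, adjusted p = 1.7e-05) and Cpt1a, the gate for fatty acid entry into mitochondria, by 1.05 (SE 0.12, adjusted p = 0.000203). The respiratory chain as a list hardly moved against E13, with 5 risers and 9 fallers among 71 (median 0.03), or 1 and 8 without the E13 arrays numbered 1, and 33 of its genes were lower than at E16 (median -0.30).

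Glycolysis and hypoxia genes fell. Of 34 tested, 3 rose and 20 fell against E13 (median -0.49), with a summed intensity of 25855 to 28125 units in culture, 45998 to 48437 at E13 and 31898 to 36273 at E16. Slc16a3, the lactate exporter of glycolytic cells (chr10:106712328-106756168), had 11.9, 22.6, 6.8 and 17.8 units in culture, against 313, 252, 263 and 218 units at E13 and 26.6, 41.2, 40.7 and 35.1 units at E16. It fell by 3.19 against E13 (SE 0.18, adjusted p = 1.52e-05), and with low values set to the 40th percentile by 2.37. Its difference from E16 (-0.77, adjusted p = 0.0199) came to -0.02 on that setting and lost the threshold on leaving out any of 5 arrays. The enzymes Eno1 and Aldoa, enolase and aldolase, fell by 1.28 (SE 0.09, adjusted p = 2.21e-05) and 1.29 (SE 0.10, adjusted p = 3.39e-05), and were 0.73 and 0.65 below E16. Eno1 had 2814, 3388, 3273 and 3309 units in culture, against 7475, 7878, 7555 and 8223 units at E13. One enzyme of the pathway rose, the platelet-type phosphofructokinase Pfkp, with 791, 1175, 837 and 833 units in culture and 216, 301, 216 and 263 units at E13 (1.80, SE 0.15, adjusted p = 5.86e-05).

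Cell cycle genes fell against both in utero groups. Of 43 tested, 0 rose and 32 fell against E13 (median -0.59), or 0 and 34 without the E13 arrays numbered 1, and 1 was higher and 26 were lower than at E16 (median -0.43). The mitotic kinase Aurkb had 429.9, 379, 429.6 and 372 units in culture, against 831, 984, 817 and 878 units at E13 and 802, 736, 855 and 813 units at E16 (-1.09 and -0.97). The spindle motor Kif11 fell by 1.02 (SE 0.10, adjusted p = 0.000119) and the replication helicase subunit Mcm3 by 0.73 (SE 0.10, adjusted p = 0.000603). Ccnd1, cyclin D1, had 173, 149.6, 218 and 120.0 units in culture and 592, 472, 427 and 404 units at E13 (-1.45, SE 0.18, adjusted p = 0.000325), while its E16 values, 182 to 270.4 units, overlapped the cultures. Of its other probe sets, one passed (-0.86, adjusted p = 0.0487) and one did not (-1.30, adjusted p = 0.0522). Cytosolic ribosome genes held 1 riser and 2 fallers among 36 (median 0.08), or 0 and 0 without the E13 arrays numbered 1.

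Stress programmes did not move together. Of 30 genes of the amino acid and integrated stress response, 14 rose and 2 fell against E13 (median 0.39). Asns, asparagine synthetase, had 504, 489.9, 518 and 438 units in culture, against 93.9, 162, 114 and 137 units at E13 (1.84, SE 0.16, adjusted p = 6.24e-05), and Nupr1, a stress-induced chromatin protein, rose by 2.25. Slc7a3, a transporter of cationic amino acids, had 79.2, 81.4, 83.8 and 104 units in culture, against 15, 23.9, 27.1 and 29.3 units at E13 and 9.8 to 26.4 units at E16 (1.38 against E13). Of 14 p53 targets, 6 rose and 1 fell (median 0.32), or 3 and 1 without the E13 arrays numbered 1. The risers included Ddit4l, an inhibitor of mTOR signalling (2.46, SE 0.14, adjusted p = 1.41e-05), and the cyclin gene Ccng1 (1.29, SE 0.12, adjusted p = 9.81e-05). Heat shock genes held 1 riser and 4 fallers among 14 (median -0.14), or 0 and 3 without the E13 arrays numbered 1. Genes of the unfolded protein response held 3 risers and 6 fallers among 20 (median -0.14). Hsph1, a partner of Hsp70, had 316, 418, 337 and 369.9 units in culture and 985, 1116, 986 and 975 units at E13 (-1.46, SE 0.11, adjusted p = 3.6e-05), and Fkbp4, a co-chaperone of steroid receptors, fell by 1.48.

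Of 28 oxidative defence genes, 10 rose and 4 fell against E13 (median -0.01). Gsta1, a glutathione transferase, had 4025, 3927, 3659.5 and 3978 units in culture, against 159, 495, 217 and 488 units at E13 (3.61, SE 0.32, adjusted p = 6.91e-05, or 2.95 without the E13 arrays numbered 1). Hmox1, the haem oxygenase, rose by 1.94 (SE 0.19, adjusted p = 0.000131) and Ephx1, microsomal epoxide hydrolase, by 2.12 (SE 0.16, adjusted p = 3.54e-05). Gpx1, the cytosolic glutathione peroxidase, had 1172, 993, 1029 and 973 units in culture, against 2923, 3266, 3091 and 3000.0 units at E13 and 5966, 4643, 4876 and 4066 units at E16. It was lower than both, by 1.55 (SE 0.09, adjusted p = 1.57e-05) and by 2.20 (SE 0.11, adjusted p = 7.17e-07).

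Gpx1 is a selenoprotein, and another selenoprotein gene was among the 4 largest falls. Selenow, a small selenoprotein of muscle and brain (chr1:85727631-85732703), had 109.5, 45.7, 73.7 and 55.6 units in culture, against 1272, 749, 1148 and 794 units at E13 and 1071, 1408, 1319.8 and 1336 units at E16. It was lower by 3.55 than E13 (SE 0.25, adjusted p = 2.38e-05) and by 3.94 than E16 (SE 0.20, adjusted p = 7.17e-07). A list of selenoproteins was therefore added after the data were seen. It was prompted by these falls, so its counts are a description and not separate support for them. Of 19 tested, 5 rose and 8 fell against E13 (median -0.26), or 3 and 9 without the E13 arrays numbered 1. The falls included Gpx3, the plasma peroxidase (-1.40), Selenoh, a nuclear redox protein (-1.26), the selenium carrier Selenop (-0.72) and Gpx4, the lipid peroxidase (-0.57). The rises included Txnrd3, a thioredoxin reductase (1.12), and Selenos, a membrane protein of the endoplasmic reticulum (1.23). Against E16, 5 genes of the list were higher and 8 lower in culture (median -0.28), with Selenop 2.16 and Gpx4 1.18 lower.

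Ligands and inhibitors of several pathways also changed. Inhba, the activin A subunit, had 309, 339, 315 and 408 units in culture, against 49.1, 27.2, 34.6 and 46.9 units at E13 (2.70, SE 0.17, adjusted p = 1.58e-05), while its second probe set did not pass (0.33, adjusted p = 0.443). Bmp4, a ligand of the early gonad and mesonephros, had 88.9, 55.7, 77.2 and 88.7 units in culture, against 487, 294, 365 and 444 units at E13 (-2.14, SE 0.18, adjusted p = 6.38e-05), and was 1.32 below E16. The BMP and TGF-beta list held 7 risers and 9 fallers among 25 (median -0.09) and the Wnt list 4 and 10 among 22 (median -0.48). In the retinoic acid list, with 3 risers and 6 fallers among 14 (median -0.15), the binding protein Crabp1 fell by 2.54 (SE 0.33, adjusted p = 0.000417) and the retinaldehyde dehydrogenase Aldh1a1 rose by 3.11 (SE 0.31, adjusted p = 0.000119). Aldh1a1 had 3999.7, 3972, 3532 and 3969 units in culture and 246, 705, 298 and 667 units at E13, and its rise was 2.47 without the E13 arrays numbered 1. Targets of YAP and serum response factor fell in 12 and rose in 4 of 20 cases (median -0.55), or in 9 and 2 without the E13 arrays numbered 1. Among the fallers were Amotl2, an inhibitor of YAP (-1.51, SE 0.11, adjusted p = 3.57e-05), and Ccn2, a secreted matricellular protein (-1.36, SE 0.14, adjusted p = 0.000137). Igf2, a fetal growth factor, fell by 1.13 (SE 0.22, adjusted p = 0.00341), and its relative Igf1 rose by 0.84 (adjusted p = 0.0124) and was 0.43 below E16 (adjusted p = 0.0131, or 0.0513 without E16 vinclozolin array 1). The other tested Igf1 probe sets rose by 0.58 and 0.71 against E13. They were 1.02 and 0.72 below E16 (adjusted p = 0.000241 and 0.000677).

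Other genes among the 12 largest rises were Prlr, Arhgef4, Calb2, Rasd2 and Mybphl, with differences of 3.14 to 3.52 (2.55 for Mybphl without the E13 arrays numbered 1). Prlr, the prolactin receptor, had 318, 616, 298 and 323 units in culture, against 13.2, 13.4, 32.4 and 14.9 units at E13 (3.52, SE 0.26, adjusted p = 3.24e-05), and was 1.32 above E16. Its second probe set rose by 1.52 against E13 and did not pass against E16 (0.08, adjusted p = 0.877). Leaving out DMSO array 2, the highest, took the first probe set's difference from E16 to an adjusted p of 0.0503. Calb2, the calcium-binding protein calretinin, had 468, 842, 463 and 520.3 units in culture, 54, 26.9, 60.2 and 45.8 units at E13 and 147 to 217 units at E16. Among the falls, Shisa3 (-3.43, adjusted p = 1.57e-05) had 55.1, 44.8, 67.4 and 94.1 units in culture and 1047, 628, 1057 and 718 units at E13. Its E16 values, 54.1, 27.9, 28.9 and 23.4 units, overlapped those of the cultures. The homeobox gene Hlx and Dct, an enzyme of melanin synthesis, showed the same order, with falls of 3.02 and 2.92 against E13 and E16 values of 14 to 40.1 and 39.5 to 95.1 units. Hlx was 3.7, 3.2, 54.5 and 8.1 units in culture, so 1 cultured array stood above the other 3. The 40th percentile was 36.3 to 37.6 units on the cultured arrays and 32.8 to 40.1 units at E16. The fall of Hlx may therefore be partly set by the filter.

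Some genes set the culture apart from both in utero groups. Trim2, a ubiquitin ligase of neurons, had 1073, 1064, 1137 and 1103 units in culture, against 165, 160.3, 178 and 163 units at E13 and 192, 98, 169 and 264 units at E16 (2.61 and 2.57). Plau, the urokinase plasminogen activator, had 243, 198, 243 and 145 units in culture, against 35.2, 37.1, 36.3 and 40.5 units at E13 and 27.4 to 41.3 units at E16 (2.04 and 2.18). Itga6, a laminin-binding integrin, was higher than both by 1.41 and 1.67, and one of its 2 other probe sets did not pass against E16 (0.89, adjusted p = 0.057). The brighter probe set of the metal transporter Slc11a2 was higher than both by 1.63 and 1.72, and the other by 0.39 against E13, with no pass against E16 (0.20, adjusted p = 0.246). Other genes were high at E16 and low both in culture and at E13. Svs5, which codes for a secreted protein of the seminal vesicle, had 21.6, 1.7, 11.7 and 19.2 units in culture, against 799.5, 942, 1058 and 925 units at E16 (-5.05, SE 0.21, adjusted p = 1.84e-07), with 2.1 to 8.8 units at E13. It entered the test through its E16 arrays alone, so its p-value is no separate support for the difference. Cpa1, a carboxypeptidase of the exocrine pancreas, had 313, 378, 373 and 206 units in culture, 198, 125, 149 and 176 units at E13 and 3359, 5941, 8435 and 7827 units at E16 (0.89 and -4.22). In all, 7649 probe sets passed between culture and E16, 3958 higher and 3691 lower in culture.

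**Figure D4:**
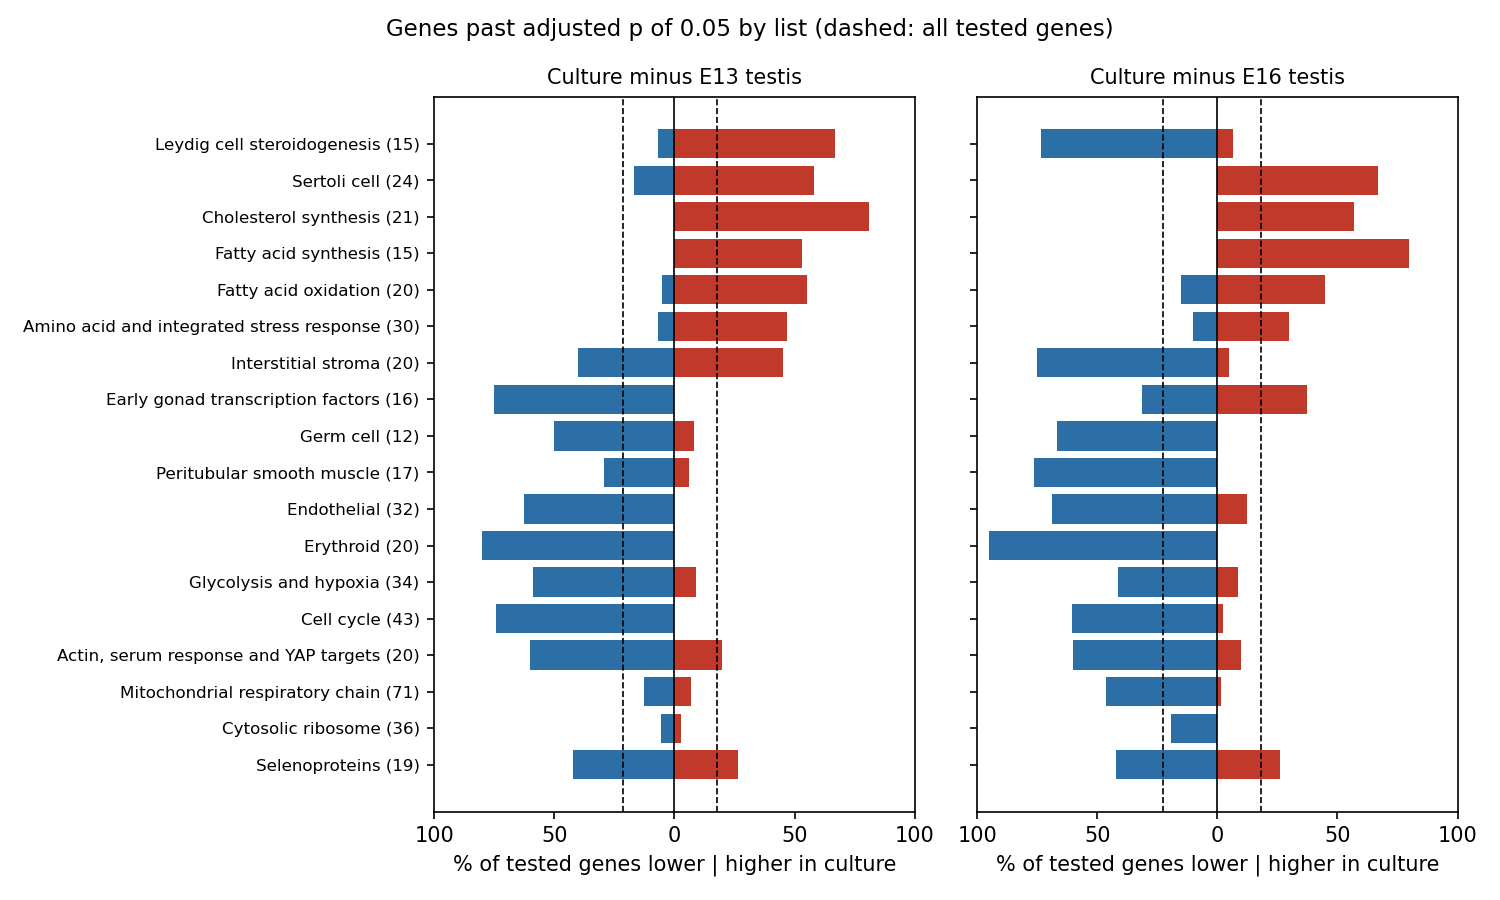
Share of tested genes (percent) past an adjusted p of 0.05 in 18 gene lists, higher in culture to the right (red) and lower to the left (blue), for culture minus E13 and culture minus E16, with the number tested in brackets and dashed lines at the shares of all genes. Leydig cell genes lie right against E13 and left against E16, while Sertoli cell, cholesterol and fatty acid synthesis genes lie right in both panels and red cell, endothelial, germ cell and cell cycle genes left in both.

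Vinclozolin and vehicle arrays were pooled in these comparisons with the treatment as a covariate, although the compound reached the tissue by different routes and doses in culture and in utero. The culture change with vinclozolin minus that with vehicle was therefore tested for every probe set. By limma 0 of 19949 passed an adjusted p of 0.05 (smallest 1.00) and 540 had an unadjusted p under 0.05. The median SE of this difference was 0.32, which limits what 2 arrays per group can show. For Cyp17a1 the cultures had 726 and 715 units with vinclozolin, against 611 and 876 units with DMSO, so the groups overlapped.

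A second set of 3-day cultures on 4 arrays, made with 0.5 µM flutamide, an antiandrogen, or with its vehicle ethanol, allows values to be set beside the first. It shares the E13 arrays, so the 2 comparisons are not independent. It also differs from the first culture in its deposited trimmed mean (107), its Actb ratios (9.08 to 11.1) and its Xist signal (314.3 to 396 units). Of 19949 probe sets, 11235 passed against E13, 57.4% of them higher, with a median shift of 0.10 over all probe sets. As deposited and not rescaled, 14940 passed and 6.23% of them were higher, so directions in this set are given after rescaling only. Among genes, 29.1% were higher and 25.8% lower, 54.9% in all, and groups did not overlap for 50.3%. Cyp17a1 had 1088, 1023, 1259 and 1218 units and Cyp11a1 had 1289.6, 1286, 1368 and 1482 units in the second culture (ethanol 1, ethanol 2, flutamide 1 and flutamide 2), 5.50 and 5.16 above E13. Insl3 was 3.41 and Cldn11 2.83 above E13, and Sry was 2.85, Hbg1 3.16, Lyve1 1.66, Slc16a3 2.19 and Selenow 2.06 below it. The Leydig cell list held 12 risers and 1 faller of 15 and the Sertoli cell list 14 and 5 of 24. The red cell list held 0 and 8 of 20, with Hbb at 1261, 1202, 1239 and 2170.1 units, a range within that of the E13 arrays. Endothelial genes were split, with 8 higher and 9 lower of 32. The cell cycle list held 0 and 35 of 43 and the cholesterol list 15 and 0 of 21.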

How the data were processed

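RNA of rat testes was measured on Affymetrix rat arrays. The signal intensity of each probe set was made and deposited by the authors on a linear scale with MAS5 and GCOS, per the submitters' processing notes, whose versions those notes leave out. Each array was rescaled to a 2% trimmed mean of 200 and taken as log2(intensity + 16), so all log2 values were computed here from the deposited intensities. Of 31042 probe sets that are not controls, 19949 reached the 40th percentile of their array on at least 4 of the 12 culture, E13 and E16 arrays. Of these, 14888 carried 1 gene symbol in the platform annotation, 336 several and 4725 none. A probe set could pass this filter through the 4 arrays of a single group where it was high. For example, Svs5 did so at E16, Sry at E13 and Slc7a3 in culture, and their differences are partly set by the filter. The probe set with the highest mean stood for a gene.

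limma 3.58.1 in R 4.3.3 fitted culture and treatment as additive terms over 8 arrays with trended eBayes, and Benjamini-Hochberg adjustment ran over all 19949 probe sets at 0.05. The culture and treatment interaction was a separate fit. The procedure was tested on simulated data. The number of arrays limits the precision. Figures were drawn with matplotlib 3.10.9 in Python 3.11.15.

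Genes were drawn from the 12 largest rises and falls of each comparison among those past the threshold with no overlap between groups. Up to 4 genes of each list by p, and a short fixed set, were drawn as well. Not every gene drawn in this way is given above, though the counts of values of named genes below include them. Others were chosen after their values were seen. Members and gene lists were chosen with earlier results of these data known, and the selenoprotein, liver and skeletal muscle lists were added after the data were seen. Same-numbered arrays deviated together at E13 (r = 0.65 between vehicle and vinclozolin), less so in culture (0.155) and not at E16 (-0.146) or between culture DMSO and E13 vehicle (-0.245). The numbers were therefore not taken to pair arrays between culture and in utero groups. The alternatives were quantile normalization, no rescaling, pseudocounts of 1 and 64, other filters, other designs, single treatments and leaving out arrays. Setting low values to the 40th percentile was an alternative added after the data were seen.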

Additional observations from a re-analysis of the deposited data

Results flagged for a closer look

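Afp and Alb, which code for the plasma proteins alpha-fetoprotein and albumin made by fetal liver and yolk sac, moved in opposite directions in the 2 cultures. Afp had 1.2, 4.8, 13.7 and 2.8 units in the vinclozolin culture and 459, 464, 491 and 771 units in the flutamide culture, against 91.7, 248, 455 and 109.7 units at E13. The difference from E13 was -3.26 (adjusted p = 0.000379 by limma) for the first culture and 1.44 (adjusted p = 0.00879) for the second. Alb had 16.5, 7.5, 2.3 and 9.5 units in the vinclozolin culture and 1919, 1839.7, 2072 and 3478 units in the flutamide culture, against 104, 253, 412 and 94.7 units at E13. Its differences were -3.02 and 3.52. All arrays of the first culture lay below all E13 arrays and all arrays of the second lay above them for both genes. The difference between the cultures was not tested. The summed intensity of 7 liver genes was 125 to 160 units in the first culture and 2944 to 5150 units in the second, against 312 to 1127 units at E13. For scale, Alb alone had 1839.7 to 3478 units in the second culture. The liver list was added after the data were seen, so its sum is a description and not separate support for the changes of Afp and Alb.

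Rpl13a, a ribosomal protein gene often used as a control, also stood on opposite sides of E13, at -0.24 in the first culture (adjusted p = 0.0417) and 0.25 in the second (adjusted p = 0.00943), and this difference was not tested either. The value of the first culture was near the threshold and lost it under several settings.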

How the results depend on the processing

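Counts of probe sets past the threshold fell with fewer arrays. With vehicle arrays only, 1855 passed for culture against E13, 3550 for culture against E16 and 5520 for the second culture against E13. With vinclozolin or flutamide arrays only, 2763 passed for culture against E13 and 7219 for the second culture. Leaving out 1 array in turn gave 5751 to 6984, 6131 to 7610 and 9673 to 11071 for these comparisons, and 0 to 1 for the difference between the culture changes with vinclozolin and with vehicle. That difference also gave 1 without both E13 arrays numbered 1, and culture against E13 then gave 5937. The replicate number as a replicate block gave 8166, 7316, 0 and 11898, where the numbers tie arrays together at E13 (r = 0.65) and are not taken as pairs across groups. Among the genes named, no value changed sign past the threshold under any alternative run. For culture against E13, 138 values of named genes lost the threshold and 4256 kept their side of it, and for culture against E16 158 and 3471. Of the list counts, 250 moved by over 1.5 times and 1774 did not against E13, and 181 and 1751 against E16. A pseudocount of 64, or low values set to the 40th percentile, shrank the folds of genes near the bottom of the range.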

Other observations

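Some gene groups outside the accounts above also held genes that changed against E13. Of 16 clock genes, 6 rose and 1 fell (median 0.39), or 7 and 0 without the E13 arrays numbered 1. Per3, a period gene, had 173, 262, 155 and 174 units in culture, against 61.6, 35.5, 53 and 48.7 units at E13 (1.64, adjusted p = 0.000249 by limma). Of 16 imprinted genes, 3 rose and 7 fell (median -0.25, or 3 and 4 without the E13 arrays numbered 1), with Grb10, an adaptor that restrains growth factor receptors, at -0.92 for the chosen probe set, while 1 of its 2 other probe sets did not pass (-0.39, adjusted p = 0.467).

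Collagens, laminins and integrins held 10 risers and 11 fallers among 51 (median 0.08). All 3 type VI collagen chains tested rose, Col6a3 by 2.23 and Col6a2 by 0.99 beside Col6a1 above. Col2a1, the cartilage collagen, had 109, 52, 90.5 and 110.3 units in culture, against 413, 830.3, 363 and 527 units at E13 (-2.34, adjusted p = 0.000281). Of 18 interferon response genes, 5 rose and 2 fell (median 0.05), and Ifi44, an interferon-induced protein gene, had 196, 189.8, 198 and 197 units in culture, against 32.3, 44.4, 31.7 and 47.3 units at E13 (1.96, adjusted p = 3.46e-05). Its E16 values, 119.9 to 222 units, overlapped the cultures.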
